A study of Oryctolagus cuniculus with 10 samples.

Results

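ENSOCUG00000009707 is a rabbit gene that is described here over 10 RNA-sequencing libraries of fetal lung, as 1 of the 13429 genes of the deposited table. It was chosen from the readout: its level after hernia with occlusion against control had passed the threshold in these libraries, and its levels after each operation alone lay in between. The differences between groups are therefore given as a description of size. What is asked of the data is whether the fall with hernia and the fall with occlusion add up to the fall after both operations. The table gives the gene by its Ensembl identifier alone. None of the 13429 identifiers matched the RefSeq rabbit gene table used here, so no symbol, position, function, pathway or sequence of the gene is given.

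Congenital diaphragmatic hernia is a hole in the diaphragm that lets stomach, gut or liver move up beside the developing lung, which then grows small and poorly branched. The fetal lung secretes fluid that leaves through the trachea, and the pressure of that fluid distends the growing airspaces. Closing the trachea before birth keeps the fluid in and stretches the lung, which is why occlusion is studied as a treatment of the fetus with a hernia.

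All fetuses were New Zealand rabbits, and all libraries were made from tissue of the outer side of the upper left lung lobe, taken at E30.5. The 3 control libraries came from fetuses labelled as controls, and the labels do not say whether these had a sham operation. In 2 libraries the fetus had a left diaphragmatic hernia made by surgery at E25. In 2 libraries it had tracheal occlusion at E27 and no hernia. In the last 3 libraries the hernia at E25 was followed by occlusion at E27. The labels used here state neither litter nor sex. A p-value therefore measures the spread between these libraries, which may be in part technical. The titles carry a stem of unstated meaning: the hernia libraries have M38 and M39, and the others run from M83 to M98. A difference of stem and an effect of the hernia alone therefore cannot be told apart. The difference of both operations from hernia, and the question of adding up, also set M38 and M39 against the other stems. After the stem, each title ends in a letter and a digit, again of unstated meaning. This ending is L3 in all 3 controls and in no other library. Every fall from control, and so the question of adding up, also sets L3 against other endings. Whether the level of the gene goes with the ending was not tested. The markers that would show the cell makeup of the lobe could not be looked up without symbols. The tissue is a mixture of cell types, and fewer cells of a type and less RNA of the gene per cell cannot be told apart.

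Totals ran from 16.38 to 22.24 M counts per library, and the gene had between 962 and 2906 counts in each. Its level is given as CPM, the gene's counts per 1000000 counts of the library. At this depth the 95% Poisson interval of a library's level spans about 3.65% to 6.37% of the level on either side, and it covers counting error only.

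The level of ENSOCUG00000009707 was highest in controls, lower after either operation and lowest after both. The controls stood at 156, 146 and 140 CPM for replicates 1, 2 and 3. The hernia libraries stood at 89.2 and 91.9 CPM. The occlusion libraries stood at 77.3 CPM for replicate 1 and 117 CPM for replicate 2. After hernia with occlusion the libraries stood at 49.9, 55.0 and 55.3 CPM. The 3 controls were thus the 3 highest of the 10 libraries, and the 3 libraries with both operations were the 3 lowest. The step from the lowest control down to the highest library with a single operation, occlusion replicate 2, was 1.19-fold. The step from the lowest library with a single operation, occlusion replicate 1, down to the highest library with both was 1.40-fold. Hernia and occlusion overlapped, since both hernia libraries lay between the occlusion libraries.

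**Figure D1:**
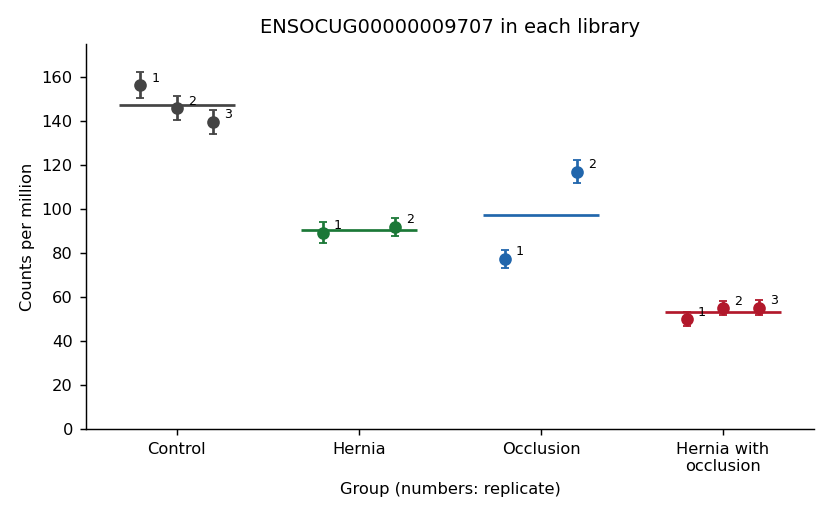
Level of ENSOCUG00000009707 in CPM (vertical axis, from 0) in each of the 10 libraries by group (horizontal axis). Points are libraries with their replicate number, bars are 95% Poisson intervals of the count, and horizontal lines are group means; the occlusion libraries, at 77.3 and 117 CPM, lie on either side of the hernia libraries, at 89.2 and 91.9 CPM.

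As group means, the gene stood at 147 ± 8.5 CPM (SD, n = 3) in controls, 97.1 ± 28 CPM (SD, n = 2) with occlusion, 90.5 ± 1.9 CPM (SD, n = 2) with a hernia and 53.4 ± 3.0 CPM (SD, n = 3) with both. The level after a hernia was 61.5% of that in controls, after occlusion 66.0%, and after both 36.3%. Hernia and occlusion, neighbours in this order, differed by less than the spread of the occlusion libraries. The mean of the occlusion group describes neither of its libraries, of which replicate 1 had 52.5% of the control mean and replicate 2 had 79.4%.

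The spread within a group was small except with occlusion. The coefficient of variation of the gene was 5.74% in controls, 2.05% with a hernia and 5.64% with both, where the median gene of 13379 tested had 11.5%, 9.65% and 13.2%. In the occlusion group it was 28.9%, against 14.7% for the median gene. A still lower value was found in 19.55% of genes in controls, 12.11% with a hernia, 15.49% with both and 76.29% with occlusion. The medians are over genes of all levels, and a choice by group differences favours a gene with little spread. Nothing is therefore read from the comparison with the median gene. The hernia libraries, which held the lowest and the highest total of the series, differed by no more than counting noise (chi-square per degree of freedom 0.720 for the gene's count). In controls the same ratio was 8.69 and after both operations 3.27, so these libraries varied beyond counting error. Between the occlusion libraries it was 153, and their Poisson intervals, 73.5 to 81.3 CPM and 112 to 122 CPM, lay far apart.

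The occlusion libraries also stood apart from each other over all tested genes. On the first principal component, which held 33.6% of the variance of log2(CPM + 0.5), occlusion replicate 1 had a score of 35.2 and replicate 2 had -22.0, within the range of the controls (-30.7 to -8.8). The hernia libraries had scores of -5.2 and -23.1, so occlusion replicate 2 lay between them too. Hernia with occlusion replicates 1, 2 and 3 had scores of 31.2, -4.4 and 44.3. Their levels of ENSOCUG00000009707, at 49.9, 55.0 and 55.3 CPM, did not show that separation of replicate 2. What part of the gap between the occlusion libraries in this gene goes with the component was not tested.

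Fitted over all libraries with edgeR, the gene was lower by 0.73 ± 0.17 on the log2 scale with a hernia than in controls (log2 difference -0.73, SE 0.17, a 1.66-fold lower level). With occlusion the log2 difference from controls was -0.60 ± 0.16 (SE), a 1.51-fold lower level. After both operations it was -1.49 ± 0.15 (SE), a 2.80-fold lower level. Read along the other side of the design, occlusion of a hernia lung went with a log2 difference of -0.76 ± 0.16 (SE), and a hernia in an occluded lung with -0.89 ± 0.16 (SE). All 5 differences were negative, and their 95% intervals ran from -1.82 at the lowest to -0.22 at the highest. They share libraries and are not separate pieces of evidence. With edgeR's adjusted p, the difference of both operations from control passed the threshold of 0.05, where 0.0149% of the 13379 genes tested were called lower. That contrast chose the gene, and nothing is read from the count. DESeq2 called the gene lower in further differences that edgeR did not call. Hernia against control was called by DESeq2 (0.726% of genes called lower, edgeR adjusted p = 0.246). So were both operations against hernia (2.99%, edgeR adjusted p = 0.0925) and both against occlusion (0.15%, edgeR adjusted p = 0.819). All group levels were known when the gene was chosen, so nothing is read from these calls either. The difference of occlusion from control was called by neither tool (edgeR adjusted p = 0.852, DESeq2 adjusted p = 0.264). The median gene had a log2 difference between -0.01 and 0.01 in these comparisons.

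Without occlusion replicate 1 the difference of occlusion from control was -0.32, and without replicate 2 it was -0.94. The difference of both operations from occlusion was -1.17 without replicate 1 and -0.55 without replicate 2. The remaining differences moved little with any library: both against control lay between -1.53 and -1.43, hernia against control between -0.77 and -0.68, and both against hernia between -0.79 and -0.71. The call of both operations against control was lost without control replicate 1 or 3 (edgeR adjusted p = 0.119 and 0.0790) and without hernia with occlusion replicate 1 or 3 (edgeR adjusted p = 0.109 and 0.0956), while the size of the difference stayed in the range just given.

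**Figure D2:**
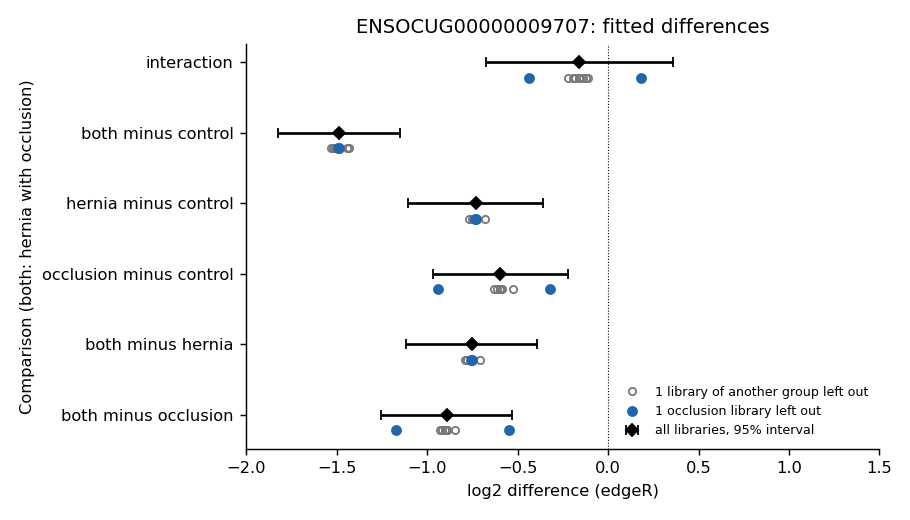
Log2 differences of ENSOCUG00000009707 from edgeR (horizontal axis) for the interaction and 5 differences between groups (vertical axis). Diamonds with bars are the values and 95% intervals over all libraries, and circles are the values with 1 library left out, filled in blue where that library is an occlusion library; the interaction is 0.18 without occlusion replicate 2 and -0.44 without replicate 1.

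If the falls add up on the log2 scale, the ratio of hernia to control and the ratio of occlusion to control multiply, and the interaction of hernia and occlusion is 0. The fitted interaction of ENSOCUG00000009707 was -0.16 ± 0.23 (SE, log2), with a 95% interval from -0.68 to 0.36. The level after both operations was thus 0.895 times the level that adding up predicts, with an interval of 0.626 to 1.28 times. The edgeR adjusted p of the interaction was 0.831 (unadjusted p = 0.505). A departure from adding up was not detected, and the interval leaves room for a level from well below to above the predicted one. In edgeR the interaction called 0 of 13379 genes (0%) at an adjusted p under 0.05. Without adjustment 1324 genes (9.9%) had a p below that threshold, and DESeq2 called 66 genes (0.66%) after adjustment. In DESeq2 the interaction of this gene was also -0.16, with an adjusted p of 0.854. Since all group levels were known when the gene was chosen, this p is not independent of the choice.

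The sign of the interaction rests on the occlusion libraries. Without occlusion replicate 1 it was -0.44, and the gene fell further after both operations than adding up predicts. Without replicate 2 it was 0.18, a smaller fall than predicted. Either fit leaves 1 library in the occlusion group, so only the size of the interaction is given. With any library of another group left out it lay between -0.22 and -0.11.

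Whether falls add up also depends on the scale. In CPM, the mean fall from control was 56.6 with a hernia and 50.1 with occlusion, together 107, and the fall after both operations was 93.8. Adding the falls in CPM predicts 40.5 ± 15 CPM (SE) after both operations, and adding them on the log2 scale predicts 59.7 ± 8.9 CPM (SE). The observed mean of 53.4 CPM lay between these predictions, within 1 SE of each. The interaction in CPM was 12.9 ± 16 (SE), of the opposite sign to that on the log2 scale. The standard errors come from the spread pooled over the 4 groups, most of which is the gap between the occlusion libraries.

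With occlusion replicate 1 left out, the predictions rose to 60.3 ± 7.8 CPM (SE) for falls in CPM and 71.9 ± 5.1 CPM (SE) for falls in log2, both above the 49.9 to 55.3 CPM of the libraries with both operations. With replicate 2 left out they were 20.7 ± 7.8 and 47.6 ± 3.3 CPM (SE), both below those libraries. In these predictions the occlusion group has 1 library, which is taken to vary like the libraries of the other groups.

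**Figure D3:**
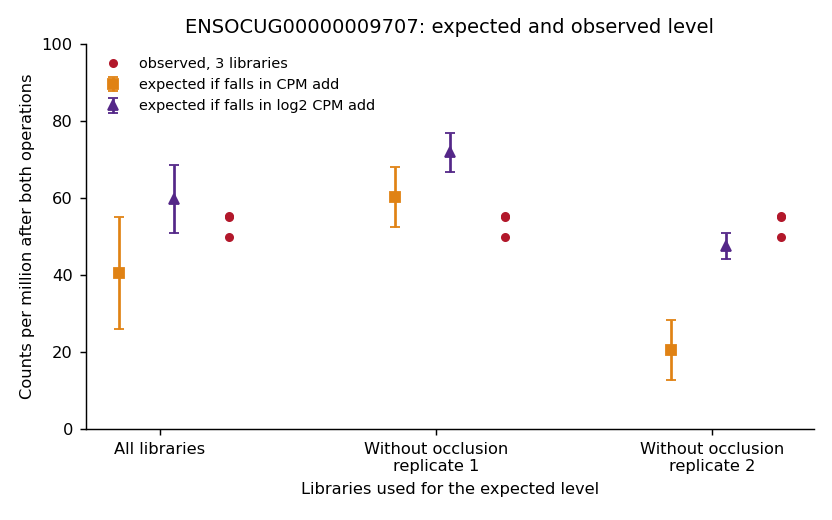
Level of ENSOCUG00000009707 after both operations in CPM (vertical axis, from 0), as predicted from the other groups and as observed, for all libraries and without either occlusion library (horizontal axis). Squares are predictions from adding falls in CPM, triangles from adding falls in log2 CPM, bars are 1 SE, and circles are the 3 libraries with both operations; with all libraries the predictions are 40.5 and 59.7 CPM and the observed mean is 53.4 CPM.

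Libraries that share a title stem allow a closer look at 2 steps, with no test from 1 pair each. Stem M83 is shared by control replicate 2, at 146 CPM, and hernia with occlusion replicate 1, at 49.9 CPM, a 2.92-fold lower level. Stem M88 is shared by occlusion replicate 2, at 117 CPM, and hernia with occlusion replicate 3, at 55.3 CPM, a 2.12-fold lower level. Every control and every occlusion library lay above every library with both operations, so the direction of these steps was fixed beforehand. Only their sizes are described.

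The complete order of the groups, with every control above every library with a single operation and each of these above every library with both, was shown by 11 of 13379 genes (0.0822%), ENSOCUG00000009707 among them. All 3 libraries with both operations lay below the other 7 in 335 genes (2.5%), and all 3 controls lay above the other 7 in 150 genes (1.12%). The mirror image, with every step upward, was shown by 15 genes (0.112%). All 3 libraries with both operations lay above the other 7 in 339 genes (2.53%), and all 3 controls lay below the other 7 in 285 genes (2.13%). The shares for the falling order include the gene itself, and its own place among them is part of how it was chosen. Among the 11 genes the log2 difference of both operations from control ran from -1.97 to -0.34, with a median of -0.86, and that of ENSOCUG00000009707 was the third largest in size. Ahead of it were ENSOCUG00000005294 (log2 difference -1.97, from 12.7 ± 1.3 CPM in controls to 3.30 ± 1.6 CPM with both, SD, n = 3 each) and ENSOCUG00000007470 (log2 difference -1.52, from 101 to 164 CPM in controls to between 40.7 and 55.7 CPM with both). Both were named after their values were seen. The interaction was negative in 7 of the 11 genes, ENSOCUG00000009707 among them, and positive in 4, with a median of -0.09. Over all genes tested the median was -0.01, and nothing is read from the count.

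**Figure D4:**
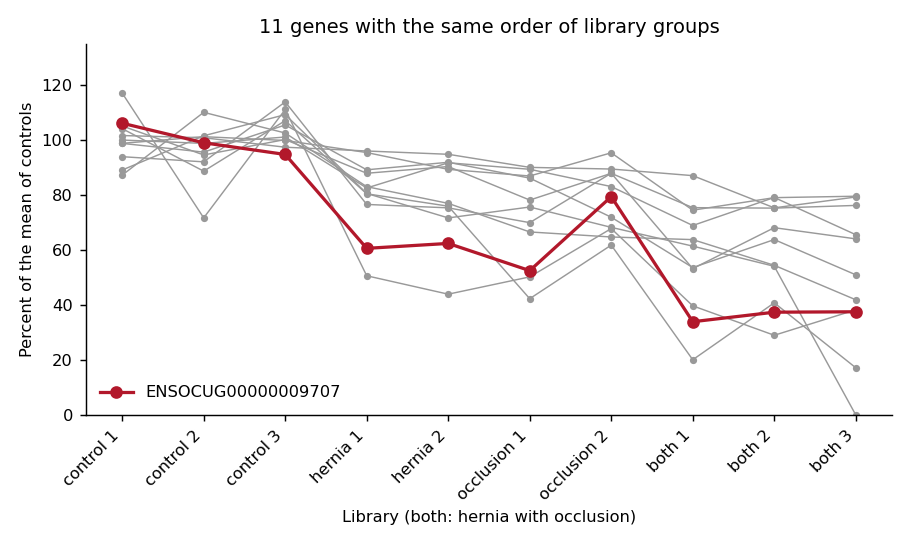
Level in percent of the mean of controls (vertical axis) in the 10 libraries (horizontal axis) for the 11 genes whose libraries keep the order control, single operation, both operations without overlap. ENSOCUG00000009707 is in red, at 33.9% to 37.5% after both operations, the other 10 genes are in grey, and lines only join the values of a gene.

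Likeness of pattern was measured as Pearson's r of log2(CPM + 0.5) over the 10 libraries, among 10970 other genes with a mean of at least 5 CPM, and is a description without a test. The 5 genes most like ENSOCUG00000009707 were ENSOCUG00000027519 (r = 0.965), ENSOCUG00000008240 (r = 0.956), ENSOCUG00000021890 (r = 0.948), ENSOCUG00000010172 (r = 0.937) and ENSOCUG00000009044 (r = 0.924). Their Spearman's rho lay between 0.915 and 0.952. Without the 2 libraries farthest from the median of the gene, control replicate 1 and hernia with occlusion replicate 1, r lay between 0.907 and 0.969.

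These genes changed less than ENSOCUG00000009707. In ENSOCUG00000027519, ENSOCUG00000021890 and ENSOCUG00000009044 the groups kept the complete order described above. In ENSOCUG00000008240 occlusion replicate 2, at 127 CPM, lay above control replicate 2, at 126 CPM, and in ENSOCUG00000010172 it lay above control replicate 3, at 213 against 211 CPM. In controls ENSOCUG00000027519 had 120 ± 1.5 CPM (SD, n = 3), compared with 93.0 ± 3.3 CPM (SD, n = 3) with both operations, a log2 difference of -0.39. ENSOCUG00000009044 had 107 ± 13 and 66.1 ± 8.2 CPM (SD, n = 3 each), a log2 difference of -0.72, the largest in size of the 5 genes. In each of the 5 genes occlusion replicate 1 lay below replicate 2, at 74.8 and 94.1 CPM in ENSOCUG00000009044. After subtraction of the group means, the correlation of the 5 genes with ENSOCUG00000009707 was between 0.553 and 0.792. The gap between the occlusion libraries weighs most in these values. The 5 genes were picked by r over the same libraries, so neither these values nor the shared order of the occlusion libraries is separate evidence of likeness.

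The 5 genes with the most opposite pattern were ENSOCUG00000007274 (r = -0.953), ENSOCUG00000008514 (r = -0.942), ENSOCUG00000009379 (r = -0.941), ENSOCUG00000008660 (r = -0.937) and ENSOCUG00000002055 (r = -0.937). Controls had 66.7 ± 2.5 CPM (SD, n = 3) of ENSOCUG00000007274, followed by 79.0 ± 3.1 CPM (SD, n = 2) with a hernia, 86.7 ± 14 CPM (SD, n = 2) with occlusion and 99.6 ± 7.5 CPM (SD, n = 3) with both. Its occlusion libraries stood at 96.9 and 76.5 CPM, the reverse of the order in ENSOCUG00000009707. The correlations of the 5 genes within groups lay between -0.889 and -0.433, over the same libraries that picked these genes. An r above 0.9 was found in 16 genes (0.146%) and an r below -0.9 in 24 (0.219%).

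**Figure D5:**
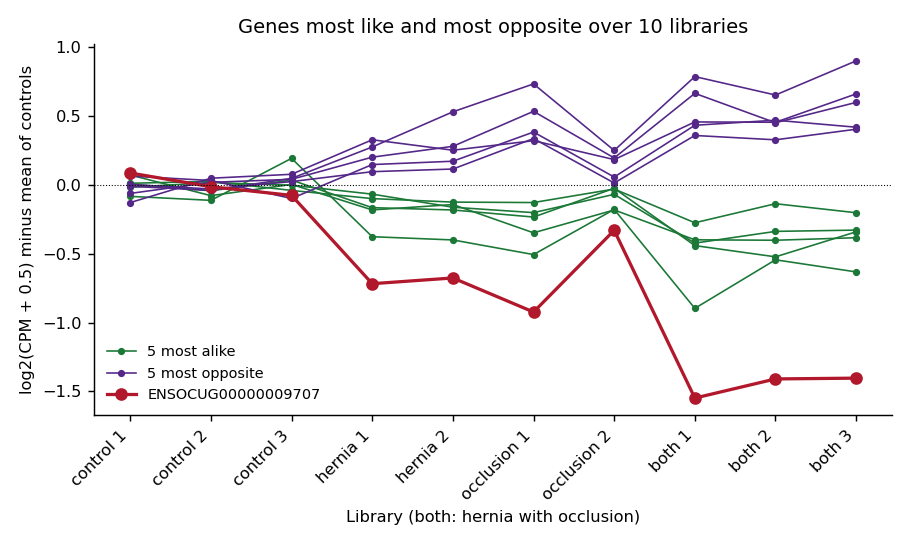
Log2(CPM + 0.5) minus the mean of controls (vertical axis) in the 10 libraries (horizontal axis) for ENSOCUG00000009707 in red, the 5 most alike genes in green and the 5 most opposite in purple, with lines that only join the values of a gene. Occlusion replicate 2 lies closer to the controls than replicate 1 in each of the 11 genes, and the red gene spans the widest range.

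The gap between the occlusion libraries was not a feature of every gene that differed from control after both operations. ENSOCUG00000001536 stood at 38.6 and 43.5 CPM in occlusion replicates 1 and 2, against 6.90 to 10.6 CPM in controls. ENSOCUG00000027099 stood at 2.27 and 2.84 CPM in them, against 81.2 to 149 CPM in controls. ENSOCUG00000009644 had another order of groups, with 35.5 CPM or less after a hernia and 96.9 to 168 CPM with both operations, where ENSOCUG00000009707 was lowest.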

How the data were processed

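RNA was sequenced from 10 libraries of rabbit fetal lung. Tools named in the submitters' processing notes are kallisto 0.42.2.1, which estimates transcript abundance, and edgeR, with the build OryCun2.0. The step from transcripts to gene values is not stated there. The authors deposited 1 table that its name calls CPM, but its whole numbers sum to 16.38 to 22.24 M per library, so they were treated as estimated counts (also called expected counts). Estimated counts can divide reads between near-identical genes. CPM was computed as the count over the column total. Tests covered the 13379 of 13429 genes that reached 1 CPM in 2 or more libraries. Differences came from edgeR 4.0.16 in R 4.3.3, with TMM scaling (factors 0.976 to 1.03). A quasi-likelihood fit of 4 group means to all libraries left 6 residual degrees of freedom. The estimate of spread also borrows from the other genes, so the p-values and intervals of this gene rest on 9.19 degrees of freedom. P-values were Benjamini-Hochberg adjusted over all genes tested, and the fit was tested on simulated data. Standard errors are the log2 difference over the root of F. The alternatives were no TMM factors, DESeq2 size factors, DESeq2 1.42.0, limma 3.58.1 on log2(CPM + 0.5) or log2(CPM + 2), no filter, only the groups compared, limma with title stem, and each library left out. The gene, the lists and the tests were chosen with earlier results of these data known. Named genes were this gene, the 5 genes with the highest and the 5 with the lowest r, the other calls of both operations against control, and ENSOCUG00000009644. ENSOCUG00000005294 and ENSOCUG00000007470 fall outside that rule and were named after their values were seen. Cell type markers had been listed by symbol and could not be applied.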

Additional observations from a re-analysis of the deposited data

How the results depend on the processing

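Over 119 alternatives of 7 results, 104 kept the direction and the side of the threshold, or, in CPM, moved by less than the pooled SD. That SD, 12.6 CPM, is nearly as large as the interaction in CPM, 12.9, so this allowance says little about its stability. In DESeq2, 3 differences passed the threshold that they had not passed in edgeR: hernia minus control (-0.73, adjusted p = 0.0104), both operations minus hernia (-0.76, adjusted p = 0.00273) and both minus occlusion (-0.90, adjusted p = 0.00352). With 1 library left out, the interaction ran from -0.44 to 0.18 and was positive without occlusion replicate 2 (0.18). Both minus control ran from -1.53 to -1.43 with its call lost in 4 of these fits. Hernia minus control ran from -0.77 to -0.68 and both minus hernia from -0.79 to -0.71, and each was called when an occlusion library was left out (replicate 1 and 2 in turn: edgeR adjusted p = 0.0494 and 0.0480 for hernia minus control, 0.0290 and 0.0276 for both minus hernia). These libraries enter those comparisons through the shared estimate of spread. Both minus occlusion ran from -1.17 to -0.55 and was called without occlusion replicate 1 (edgeR adjusted p = 0.0124). Occlusion minus control ran from -0.94 to -0.32 and was called in none of its alternatives. The interaction in CPM ran from -6.88 without occlusion replicate 1 to 32.7 without replicate 2. Other scalings, pseudocounts, the filter and the fit with title stem (estimated correlation -0.38 within a stem) left the interaction between -0.16 and -0.12. The gene had at least 962 counts in each library, so counting error was small beside the gap between the occlusion libraries, and groups of 2 and 3 limit the precision. The labels carry no stated replicate numbers to use as a block, and the ending of the titles was not used as one. With the title stem as a block in limma, the interaction and the 5 differences between groups kept their direction and their side of the threshold (both minus control -1.43, adjusted p = 0.0321). Only stems M83 and M88 are shared by libraries, so this fit cannot show whether the stem matters.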
